A study of Mus musculus with 2 samples.

Results

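Resident fibroblast nuclei of the mouse heart were examined in 2 single-nucleus RNA libraries, 1 from hearts called CF-KI and 1 from control hearts. A barcode was taken as such a nucleus when it had at least 200 detected genes and at most 30% mitochondrial UMIs (unique molecular identifiers, each counting 1 captured RNA molecule). It also had to carry at least 3 of 10 fibroblast genes (Pdgfra, Tcf21, Col1a1, Col1a2, Col3a1, Dcn, Abca8a, Pcdh9, Rgs17 and Lama2), at most 2 of 7 genes of adventitial fibroblasts (Pi16, Dpt, Clec3b, Pcolce2, Sfrp1, Islr and Serpinf1), and at most 1 UMI over 9 genes of endothelial, immune, mesothelial and pericyte cells. By this rule 5289 of 26334 barcodes were members, 2872 of 15077 in the CF-KI library and 2417 of 11257 in the control library. The members were chosen by their own UMI counts of these genes, so the levels of the rule genes are given as a description.

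Both libraries came from cardiac tissue of male C57Bl6/J mice aged 3.5 months that had received tamoxifen. The CF-KI genotype was Tcf21-MerCreMer;Nlrp3-A350V/A350V and the control genotype was Tcf21-MerCreMer;Nlrp3-WT/WT, so both carried the tamoxifen-activated Cre recombinase driven by Tcf21. The Nlrp3 allele encodes a constitutively active sensor, and the submitters state that it is silent in cells without Cre. How many hearts entered each library was not given in the sources used here. With 1 library per group no test between genotypes was possible, the genotype and the library cannot be told apart, and every interval below is a 95% interval of counting error only.

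Cardiac fibroblasts make and turn over the collagen network that holds heart muscle together, and most of them descend from epicardial cells that expressed the transcription factor Tcf21 during development. They also send growth factors and chemokines to muscle, vessels and immune cells. NLRP3 is the sensor of the inflammasome, a protein complex that assembles with the adaptor Pycard, activates caspase-1 and so leads to processing of interleukin-1 beta and interleukin-18 and cleavage of gasdermin D.

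The CF-KI library held 21603653 UMIs and the control library 18040776. Member nuclei were shallow, with a median of 811 non-mitochondrial UMIs in CF-KI and 929 in control. Their median mitochondrial share was 14.8% in CF-KI and 4.32% in control. In all, 46 barcode sequences occurred in both libraries, among them 8 CF-KI and 9 control members. Levels are given as CPM, a nucleus group's UMIs of a gene scaled to a common non-mitochondrial total, summed over the members of a library.

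RNA of other cells was present in the members and differed between the libraries. At least 6 of 12 cardiomyocyte markers were found in 2839 of 2872 CF-KI members and in 999 of 2417 control members. The 12 markers summed to 32730 CPM in CF-KI members and 16600 CPM in control members, against 41660 and 26890 CPM over the whole libraries, and none was at 0. The 5 erythroid markers, mainly haemoglobins, summed to 10580 and 2571 CPM. The 7 endothelial markers outside the rule summed to 560.2 and 300.2 CPM. Airway epithelial markers showed the opposite: the club cell gene Scgb1a1 had no UMI in CF-KI members and 1906 in control members, in which the lung surfactant genes Sftpc and Sftpb had fewer than 3 UMIs each. The part of this other RNA in the differences below was not tested unless a value is given beside them.

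Outside the rule, the members were richer in most fibroblast genes than the other barcodes of their library. Of 16 fibroblast markers that the rule did not use, 14 were at least 2-fold above the remaining eligible barcodes in CF-KI, where 4.79% of all genes were, and 8 in control, where 4.98% were. The protease gene Htra3 was 1.57 higher in CF-KI and 1.26 higher in control on the log2 scale. The heparan sulfate proteoglycan gene Gpc6 was 1.42 and 1.50 higher, and the sodium channel gene Scn7a 1.52 and 1.65 higher. Cdh11, a cadherin of mesenchymal cells, was lower in members in both libraries, by log2 values of -0.69 and -0.44.

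Among genes on no list, those that set the members apart most in both libraries were Msc, which encodes a basic helix-loop-helix factor, and Dnm3os, the host transcript of a microRNA cluster. Msc reached 72.64 CPM in CF-KI members and 103.3 CPM in control members, 2.08 and 2.49 above the other barcodes on the log2 scale. Dnm3os reached 265.9 and 355.5 CPM, 2.03 and 2.31 above. The imprinted RNA Rian (1.82 and 1.85) and the collagen gene Col5a3 (1.83 and 2.13) were also among the leading genes.

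The rule genes were detected unevenly. Dcn, a collagen-binding proteoglycan, gave a UMI in 96.27% of CF-KI and 94.87% of control members, and Abca8a, a lipid transporter, in 50.28% and 57.96%. Pdgfra, the platelet-derived growth factor receptor of fibroblasts, was found in 34.47% and 37.57%, and Col1a1, the main interstitial collagen, in 32.28% and 36.74%. Tcf21 itself gave a UMI in 292 CF-KI members (10.17%, exact interval 9.085 to 11.33%) and in 235 control members (9.723%, 8.57 to 10.97%). Among endothelial barcodes, at median depths of 861 and 848 non-mitochondrial UMIs, the Tcf21 share was 0.5099% and 0.2034%. There Pdgfra was found in 3.417% and 2.983%, Col1a1 in 3.978% and 3.593% and Abca8a in 7.394% and 4.814%. Dcn set the members apart far less, with 73.79% and 64.54% of endothelial and 71.63% and 52.91% of cardiomyocyte barcodes. Those classes were limited to fewer than 3 of the rule's fibroblast genes, which lowers their shares. Whether a nucleus had undergone Cre recombination was not measured, so lineage descent is the label's, not a reading of these data.

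The number of fibroblast genes per nucleus lay close to the limit for many members. Exactly 3 were found in 1282 CF-KI members (44.64%) and 757 control members (31.32%). Just inside the limit, nuclei with 3 had 5832 CPM of the 16 outside markers in CF-KI and 6096 CPM in control, and Ttn, the giant sarcomere protein gene, stood at 8761 and 10890 CPM. Just outside, barcodes with 2 had 2978 and 2183 CPM of outside markers and 11140 and 18170 CPM of Ttn. Members with 6 or more had 15340 and 20270 CPM of outside markers. The content of fibroblast RNA rose with each step in marker number in both libraries.

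Mitochondrial share ordered the members too, and here the label did not hold for all of them. Only 223 CF-KI members (7.765%) had up to 5% mitochondrial UMIs, against 1356 control members (56.1%). In that bin the outside fibroblast markers summed to 1755 CPM in CF-KI, under the 5003 CPM of the whole CF-KI library, and the erythroid markers to 45850 CPM. The data of these 223 barcodes go against a fibroblast label. The 1356 control members of that bin had 7219 CPM of outside markers, also under the 8449 CPM of the whole control library. Their label is therefore in doubt by the same measure. Between 10 and 20% the bins held 1560 CF-KI and 319 control members, with 11330 and 27080 CPM of outside markers. In each of the 4 bins the CF-KI value was the lower.

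**Figure D1:**
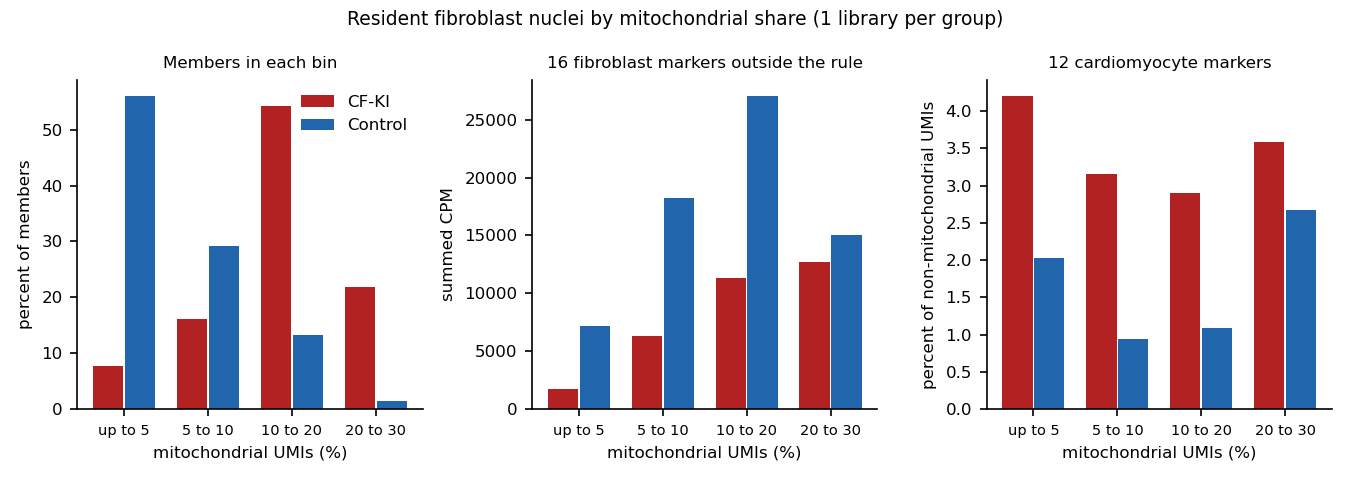
Share of members (left, percent), summed CPM of 16 fibroblast markers outside the rule (middle) and percent of UMIs from 12 cardiomyocyte markers (right) by mitochondrial share in percent, with 1 bar per library and no error since each is a single library. Most control members (56.1%) lie at up to 5% and most CF-KI members (54.32%) between 10 and 20%, and the fibroblast markers are lower and the cardiomyocyte markers higher in CF-KI in every bin.

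Members made up 22.8% of eligible barcodes in CF-KI (exact interval 22.07 to 23.54%) and 22.18% in control (21.41 to 22.97%). The difference was 0.615 percentage points, with an interval from -0.46 to 1.69 that spans 0. Its sign depended on the limits of the rule: it was -8.58 points with a mitochondrial limit of 10% and -9.98 points with one of 5%. Adventitial fibroblast barcodes, with at least 3 of the adventitial genes, were 681 in CF-KI (5.41%) and 1146 in control (10.5%).

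Nlrp3, the altered gene, was read in few molecules. CF-KI members had 7 Nlrp3 UMIs in 7 nuclei, a level of 2.43 CPM (interval 0.978 to 5.01). Control members had none, and the interval of that count reached up to 1.34 CPM. The difference was 2.43 CPM (0.45 to 5.01), and the interval of the log2 ratio began at 0.46 and had no upper end. The interval of the CF-KI level reached below the control limit. Of the 7 nuclei, 3 had exactly 3 fibroblast genes and 1 had a Tcf21 UMI. The altered residue lies outside what these gene counts can show, so the UMIs do not tell the alleles apart.

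Nlrp3 UMIs in CF-KI were not limited to the members. Endothelial barcodes of that library had 10 Nlrp3 UMIs (4.59 CPM, 2.20 to 8.44), cardiomyocyte barcodes 12 (1.93 CPM, 0.997 to 3.37) and the 681 adventitial barcodes 0. In control, endothelial barcodes had 0, cardiomyocyte barcodes 2 and macrophage barcodes 13 (16.6 CPM, 8.84 to 28.4). CF-KI macrophage barcodes had 4 (9.37 CPM, 2.55 to 24.0). With a mitochondrial limit of 5% the members' difference was 0, because both libraries then had no Nlrp3 UMI, with a limit of 10% it was 4.08 CPM, and without any adventitial marker it was 0.816 CPM.

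Against adventitial fibroblasts of the same library, the members were poorer in matrix and in most fibroblast genes. Adventitial fibroblasts form the sheath around vessels, and the split by the rule genes fixes part of their distance, so these folds describe the classes without a test. Of all genes outside the rule, 5.75% were at least 2-fold lower in members in CF-KI and 8.88% in control, and 6.62% and 8.64% at least 2-fold higher. Adventitial markers outside the rule were at least 2-fold lower for 13 of 15 in CF-KI and 11 of 15 in control. Cd248, which encodes endosialin, stood at 63.6 CPM in members against 364.8 CPM in adventitial barcodes of CF-KI, and at 48.39 against 347.8 CPM in control. The complement gene C7 stood at 24.33 against 115.5 CPM and at 22.56 against 101.1 CPM.

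Extracellular matrix genes followed the same order. Among elastic fibre and microfibril genes, 10 of 17 were at least 2-fold lower in members in CF-KI and 12 of 17 in control. Fbn1, the fibrillin of microfibrils, stood at 337.1 CPM in members and 1262 CPM in adventitial barcodes of CF-KI, and at 288.2 and 976.8 CPM in control. Elastin (Eln) was closer, at 217.9 against 246.2 CPM in CF-KI and 389 against 537.2 CPM in control. The collagen and proteoglycan list had 8 of 18 and 12 of 18 genes at least 2-fold lower, among them Col14a1, a fibril-associated collagen, by log2 values of -2.01 and -2.30.

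Neither Tcf21 nor Pdgfra was higher in the members than in adventitial barcodes. Tcf21 stood at 111.6 CPM in members and 132.7 CPM in adventitial barcodes of CF-KI, and at 94.97 and 152.4 CPM in control. Gsn, the actin-severing gelsolin and the most abundant fibroblast marker measured, stood at 6080 against 19200 CPM in CF-KI and 9010 against 32880 CPM in control. Genes higher in members included Wt1, an epicardial transcription factor, with 47 member and 2 adventitial UMIs in CF-KI and 71 and 10 in control. Tmem108 (191 and 12 UMIs, then 160 and 18) and Ddo, D-aspartate oxidase (135 and 8, then 117 and 14), were also higher. Wt1 was lower in members than in the other eligible barcodes, by log2 values of -1.09 and -0.53, and 4 of 5 mesothelial markers were at least 2-fold higher in members than in adventitial barcodes in both libraries (medians 1.14 and 1.67). Myh7b, a myosin gene of heart muscle, was also higher in members than in adventitial barcodes, at 49 against 7.093 CPM and 70.23 against 14.37 CPM. All 12 cardiomyocyte markers had a median log2 excess of 0.71 in CF-KI members and 0.95 in control members over adventitial barcodes.

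**Figure D2:**
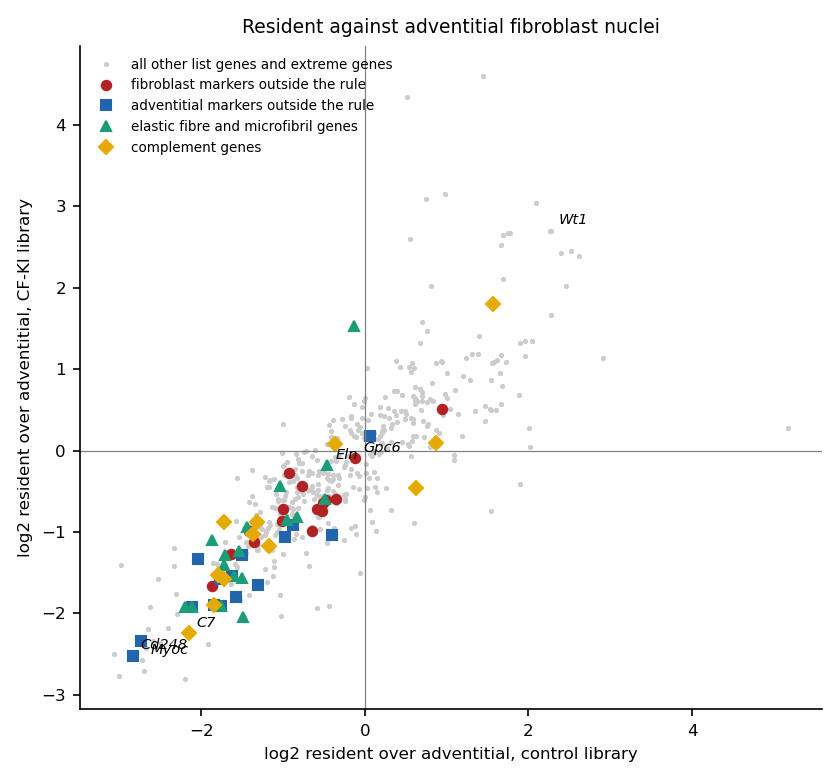
Each point is a list gene or one of the most different genes, with at least 20 UMIs in each library, placed by its log2 ratio of CPM in resident over adventitial nuclei in control (horizontal) and CF-KI (vertical). Adventitial markers, elastic fibre genes and most complement genes lie to the lower left in both libraries, and Wt1 lies to the upper right.

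Between the genotypes, most fibroblast gene groups of the members lay near the value of all genes. Of 12522 genes whose UMIs in the pair of libraries came to 20 or more, 649 (5.18%) were at least 2-fold higher in CF-KI members and 426 (3.4%) at least 2-fold lower, with a median log2 ratio of -0.03. The largest shifts lay in lists that are not particular to fibroblasts. All 18 nuclear-encoded respiratory chain genes were at least 2-fold higher (median 1.70), beside the higher mitochondrial share. The 18 cytosolic ribosomal protein genes had a median of 0.89, the 12 cardiomyocyte markers one of 1.24 and the 5 erythroid markers one of 2.03. Without the bin of up to 5% mitochondrial UMIs, 777 genes were higher and 390 lower, an alternative chosen after seeing the data.

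**Figure D3:**
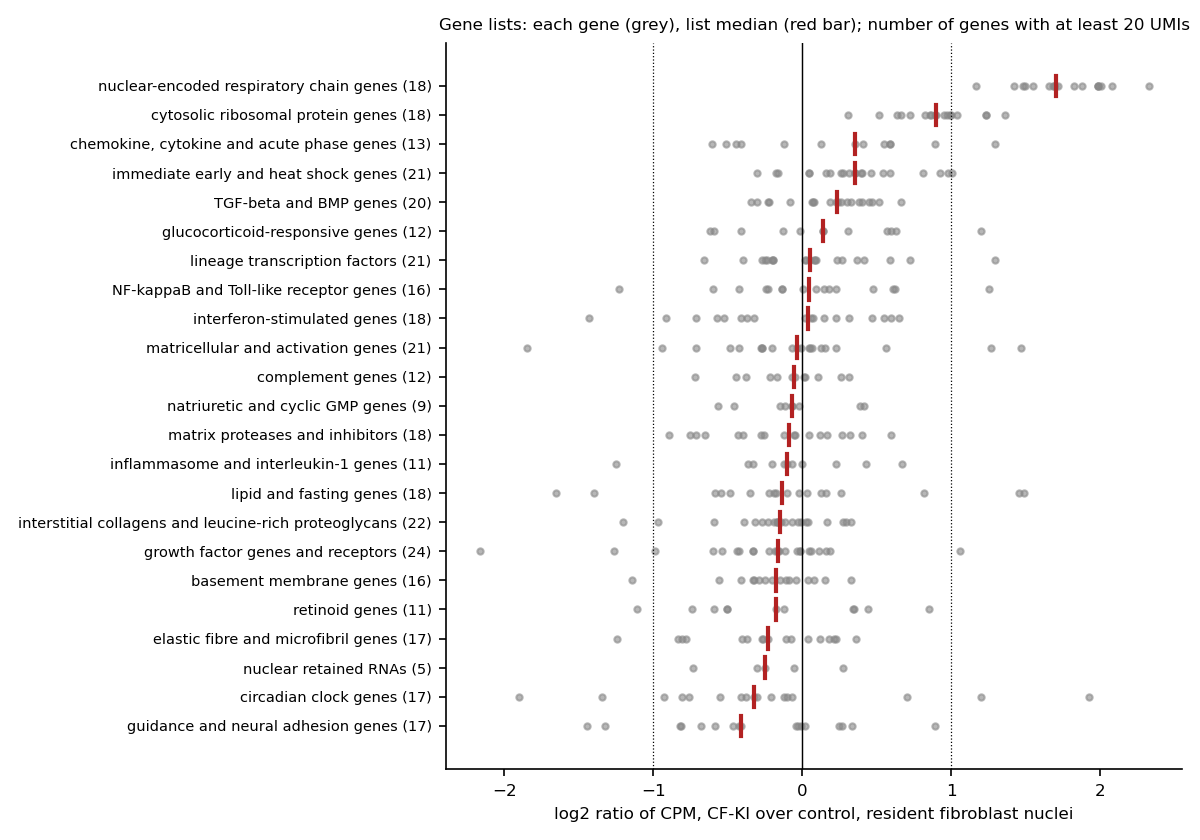
Log2 ratio of CPM in CF-KI over control members for every listed gene with at least 20 UMIs (grey points) and the median of each list (red bars), with dotted lines at 2-fold. Respiratory chain and ribosomal protein genes lie to the right, while collagen, basement membrane, complement and inflammasome lists lie around 0.

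Structural matrix genes were slightly lower in CF-KI in the pooled nuclei and lower within mitochondrial bins. Of 22 interstitial collagens and leucine-rich proteoglycans, none was at least 2-fold higher and 1 was at least 2-fold lower, with a median of -0.15. Medians were -0.84 from 5 to 10%, -0.60 from 10 to 20% and -0.45 over all members above 5%. The 16 fibroblast markers outside the rule had -0.80, -0.40 and -0.39 in the same sets, so lower values were not particular to matrix genes. Col3a1, the collagen of compliant fibrils, stood at 1265 CPM in CF-KI (1224 to 1306) and 1486 CPM in control (1441 to 1532). Col6a3, a chain of beaded microfibrils, stood at 233.9 and 353 CPM, a log2 ratio of -0.59 (-0.74 to -0.45). Fmod, fibromodulin, was the gene past 2-fold, with 27 and 60 UMIs (log2 ratio -1.20, -1.93 to -0.54). Ogn and Aspn, osteoglycin and asporin, had ratios of 0.29 and 0.33 that turned negative with mitochondrial limits of 5 and 10%. Collagen genes Col1a1 and Col1a2 stood at 428.2 and 464.3 CPM and at 750.7 and 856.6 CPM, in CF-KI and control. With free RNA subtracted, the log2 ratios turned to 0.35 for Col3a1, 0.52 for Col1a1 and 0.47 for Col1a2. That subtraction also removes fibroblast RNA, in unequal amounts, so the turn does not settle the direction.

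Elastic fibre and basement membrane genes gave a like picture. Elastin (Eln) stood at 217.9 CPM in CF-KI and 389 CPM in control, a log2 ratio of -0.84 (-0.98 to -0.69), and Ltbp2, a latent TGF-beta binding protein of microfibrils, had 21 and 48 UMIs (log2 ratio -1.24). The other genes of the 17 were within 2-fold, and the median was -0.23. The log2 ratio of Eln was -1.02 from 5 to 10% mitochondrial UMIs and -1.13 from 10 to 20%. Above 5% the median of the elastic fibre list was -0.58 and that of the basement membrane list -0.51. That of the 16 fibroblast markers outside the rule was -0.39. Of 16 basement membrane genes 1 was at least 2-fold lower, Col4a6 with 13 and 28 UMIs, and none higher. Lamb2, a laminin chain, stood at 158.1 and 210.7 CPM, and Nid2, nidogen 2, at 33.36 and 49.12 CPM. Col4a1 and Col4a2, the collagen IV chains that endothelial cells also make, had ratios of 0.15 and 0.33, which turned negative with mitochondrial limits of 5 and 10%.

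Genes of fibroblast activation were near equal in the pooled nuclei and lower in CF-KI within mitochondrial bins. Of 21 genes, 2 were at least 2-fold higher and 1 at least 2-fold lower in CF-KI, with a median of -0.04. Medians were -0.81 from 5 to 10%, -0.62 from 10 to 20% and -0.48 over all members above 5%. The 16 fibroblast markers outside the rule had -0.80, -0.40 and -0.39 in the same sets, so lower values were not particular to activation genes. Postn, periostin, the classical gene of activated fibroblasts, had 161 UMIs in each library, at 55.96 and 58.58 CPM (log2 ratio -0.07, -0.39 to 0.26). Acta2, smooth muscle actin, had 79 and 31 UMIs (log2 ratio 1.27, 0.67 to 1.93), and the smooth muscle list it belongs to had 3 of 5 genes at least 2-fold higher. Comp, a matricellular protein of collagen assembly, had 37 and 128 UMIs, at 12.86 and 46.58 CPM (log2 ratio -1.84, -2.43 to -1.32). Runx1, a transcription factor, had 33 and 61 UMIs (log2 ratio -0.94).

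Comp differed within bins too, but it was not particular to the members. From 5 to 10% mitochondrial UMIs it had 2 UMIs in CF-KI and 47 in control, and from 10 to 20% it had 22 and 48, a log2 ratio of -3.32 (-4.13 to -2.58). It was lower in CF-KI also in adventitial (-1.25) and endothelial (-1.57) barcodes. Comp was detected in 1.11% and 2.44% of members, below the 2.40% and 6.24% of endothelial barcodes at like depth. Its share was 1.76% and 1.75% in macrophage, 1.23% and 1.59% in pericyte and 1.26% and 1.17% in cardiomyocyte barcodes. The members' share was above these classes in control and below them in CF-KI. Whether the members expressed Comp was not tested.

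TGF-beta and BMP genes, which drive and restrain matrix production, moved little. None of 20 was past 2-fold, 15 were above and 5 below equal levels, and the median was 0.23. Smad2, a signal carrier of the TGF-beta branch, stood at 55.96 and 35.3 CPM (log2 ratio 0.66, 0.29 to 1.04), and its ratio over the whole libraries was also 0.66. Bmp6, a BMP ligand, stood at 31.28 and 21.83 CPM. Skil, a repressor of Smad proteins, stood at 87.58 and 111 CPM, and the inhibitory Smad6 at 11.47 and 14.19 CPM. Above 5% mitochondrial UMIs the list's median was 0.06.

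Growth factor genes past 2-fold lay on both sides, where 5.18% of all genes were higher and 3.4% lower. Of 24 genes of growth factors and receptors, the rule gene Pdgfra among them, 1 was at least 2-fold higher and 2 were at least 2-fold lower, with a median of -0.17. Fgf7, the keratinocyte growth factor that fibroblasts send to epithelia, had 12 UMIs in CF-KI and 53 in control, at 4.17 and 19.3 CPM (log2 ratio -2.16, -3.25 to -1.29). It had 3 and 20 UMIs from 5 to 10% mitochondrial UMIs (interval -4.69 to -0.54) and 4 and 6 from 10 to 20% (-5.06 to -0.72), too few for a narrow ratio. Hgf, hepatocyte growth factor, had 8 and 19 UMIs. Kitl, the ligand of the receptor KIT, had 153 and 70 UMIs (log2 ratio 1.06, 0.64 to 1.49). It was lower in members than in the other barcodes, by log2 values of -1.71 in CF-KI and -1.82 in control, and the 10 endothelial markers in the members had a median log2 ratio of 0.94. The part of that RNA in the Kitl difference was not tested. Igf1, insulin-like growth factor 1, stood at 80.28 and 121.5 CPM (log2 ratio -0.60), the receptor gene Pdgfrb at 170.3 and 247.8 CPM, and Angpt1, angiopoietin 1, at 49 and 42.94 CPM.

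Inflammasome and interleukin-1 genes other than Nlrp3 were at like levels. Only 11 of 20 had at least 20 UMIs, none of these was at least 2-fold higher and 1 was at least 2-fold lower, with a median of -0.10. The adaptor Pycard had 75 UMIs in each library, Casp1, the effector protease, 10 and 9, and the activating kinase Nek7 165 and 158. Gsdmd, gasdermin D, stood at 29.89 and 38.57 CPM (log2 ratio -0.37, -0.80 to 0.06). The cytokine genes were nearly silent: Il1b had 1 and 0 UMIs, Il1a 0 and 1, and Il18 17 and 10. Il33, an alarmin, had 34 and 24 UMIs. On the receptor side, Il1rap, the accessory chain of the interleukin-1 receptor, had 54 and 44 UMIs. Il18r1, the interleukin-18 receptor, had 16 and 37 UMIs (log2 ratio -1.25), and its ratio was 0.02 among nuclei with at least 4 fibroblast markers.

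NF-kappaB genes pointed both ways. Of 16 genes 1 was past 2-fold in each direction, with a median of 0.05, and the lower one was the Toll-like receptor gene Tlr2, with 10 and 23 UMIs. Sod2, mitochondrial superoxide dismutase, stood at 221.7 CPM in CF-KI (204.9 to 239.6) and 92.79 CPM in control (81.75 to 104.9), a log2 ratio of 1.25. It was higher in each bin tested, by 0.99, 1.13 and 1.11, and over the whole library by 1.19. Nfkb1, which encodes the p50 precursor, was lower, at 139 and 210.7 CPM (log2 ratio -0.60). Nfkbia, the inhibitor IkB alpha, stood at 93.49 and 61.13 CPM, and Nfkbiz at 24.68 and 33.11 CPM.

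Among chemokines, 1 of 13 genes was past 2-fold and the median was 0.36. Cxcl12, the ligand of CXCR4 and a product of fibroblasts and vessels, had 275 UMIs in CF-KI and 107 in control, at 95.58 and 38.93 CPM (log2 ratio 1.29, 0.97 to 1.63). Its ratio was 0.17 (-0.74 to 0.94) up to 5% mitochondrial UMIs, 1.43 from 5 to 10% and 0.89 from 10 to 20%, and 1.38 over the whole library. Like Kitl it was lower in members than in the other barcodes, by log2 values of -2.25 and -2.09, beside the same shift of endothelial markers. Ccl2, which draws monocytes, had 143 and 103 UMIs in 2.54% and 1.86% of members, beside 1.33% and 0.339% of endothelial and 1.49% and 0.732% of cardiomyocyte barcodes. Ccl2 was found in 3.81% and 3.50% of macrophage and 4.99% and 1.83% of adventitial barcodes, the last class being deeper. Ccl11, an eosinophil attractant, stood at 28.5 and 18.92 CPM, and Ccl19, a ligand of CCR7, at 15.99 and 21.83 CPM. Hp, the haemoglobin-binding haptoglobin, stood at 9.04 and 13.83 CPM. Cxcl9, an interferon-induced chemokine, had UMIs in 15 CF-KI members (0.522%) and in no control member, where the exact interval reached up to 0.1525%. Its share was 0.631% in CF-KI cardiomyocyte barcodes, at a median depth of 884 UMIs, and 4.89% in endothelial barcodes. Whether the members expressed Cxcl9 was not tested.

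Complement, interferon and stress genes gave few values past 2-fold. None of 12 complement genes with at least 20 UMIs was past it. The regulator Cd46 stood at 14.94 and 24.74 CPM (log2 ratio -0.72) and the protease gene C1s1 at 103.2 and 140.5 CPM. Cd55, which speeds the decay of complement convertases, had a ratio of 0.26 that turned negative with mitochondrial limits of 5 and 10%. Of 18 interferon-stimulated genes 1 was at least 2-fold lower, Ifit3b with 9 and 24 UMIs. Stat2, a carrier of type I interferon signals, stood at 37.54 and 70.95 CPM (log2 ratio -0.92, -1.27 to -0.57). Of 21 immediate early and heat shock genes 1 was past 2-fold, Hspb1, a small heat shock protein, at 160.9 and 80.05 CPM. Mt1, a metallothionein counted with the glucocorticoid-responsive genes, stood at 208.9 and 90.97 CPM (log2 ratio 1.20) and had 1.22 over the whole library.

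Lipid genes lay on both sides. Of 18 genes, 2 were at least 2-fold higher and 2 at least 2-fold lower, against 5.18% and 3.4% of all genes, with a median of -0.14. Fabp4, a fatty acid binding protein of capillaries and fat, stood at 1065 and 378.8 CPM and Cd36, a fatty acid transporter of endothelium and muscle, at 387.2 and 141.2 CPM. Their log2 ratios of 1.49 and 1.45 stood beside a median of 0.94 for the 10 endothelial markers in the same nuclei, and whether that RNA carried them was not tested. Fabp4 was detected in 56.2% and 28.05% of members, in CF-KI and control. The shares were alike in macrophage (56.01% and 28.3%) and cardiomyocyte barcodes (59.1% and 28.69%), and higher in endothelial barcodes (83.58% and 66.64%). Whether the members expressed Fabp4 was not tested. Angptl4, an inhibitor of lipoprotein lipase induced by fasting, had 30 and 91 UMIs (log2 ratio -1.65, -2.31 to -1.06). Aspa, aspartoacylase, had 57 and 144 UMIs (log2 ratio -1.40, -1.87 to -0.95). From 10 to 20% mitochondrial UMIs both intervals spanned 0.

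The circadian clock genes held the widest spread of any fibroblast list. In this clock the activators Arntl and Clock drive the genes of their repressors Per and Cry through E-box elements, and of Nr1d1, Nr1d2 and Dbp, which act back on the loop through other elements. The 250 bases before the annotated starts (RefSeq, GRCm38.p6, 16 of 18 clock genes matched) are shown for 3 of the clock genes whose levels differed and which hold a clock motif there. Capitals mark matches on either strand to the E-box CACGTG, the E-prime box CACGTT or its reverse AACGTG, the nuclear receptor half-site AGGTCA or TGACCT, and the D-box TTATGTAA or TTACATAA, and these motifs do not overlap each other in the windows printed. The sequences run 5′ to 3′ on the strand of the gene and end 1 base before the start.
Nr1d1, chr11:98775378-98775627, minus strand: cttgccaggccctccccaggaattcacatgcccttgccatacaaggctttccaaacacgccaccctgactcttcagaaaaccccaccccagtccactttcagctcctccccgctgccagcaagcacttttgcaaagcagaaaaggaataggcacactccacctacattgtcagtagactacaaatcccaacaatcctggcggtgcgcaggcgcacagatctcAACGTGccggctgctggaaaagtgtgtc
Cry1, chr10:85185055-85185304, minus strand: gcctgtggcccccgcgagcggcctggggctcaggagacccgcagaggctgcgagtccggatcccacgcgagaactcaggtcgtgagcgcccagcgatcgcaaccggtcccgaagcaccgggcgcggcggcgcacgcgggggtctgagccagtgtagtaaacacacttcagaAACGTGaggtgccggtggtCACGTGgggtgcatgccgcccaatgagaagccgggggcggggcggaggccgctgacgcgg
Per3, chr4:151044666-151044915, minus strand: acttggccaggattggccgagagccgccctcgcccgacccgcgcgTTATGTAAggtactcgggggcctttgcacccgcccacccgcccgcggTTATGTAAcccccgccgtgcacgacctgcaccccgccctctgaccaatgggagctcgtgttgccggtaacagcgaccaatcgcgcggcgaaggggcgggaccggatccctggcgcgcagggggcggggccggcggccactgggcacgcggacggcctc
Of 32817 such windows over all genes, 6.02% hold the E-box, 3.85% the E-prime box, 14% the half-site and 0.817% the D-box. Among the 16 clock genes 5, 3, 4 and 1 hold them in any of their windows, which number 21. The clock counts are of genes and the shares above are of single windows, so they are not alike. The windows of Dbp and Arntl, whose levels also differed, hold none of these motifs. Cry2, with 1 E-prime box, and Nr1d2, with 1 half-site, are not shown. A match is a description of the letters and not a bound site, and a link between motif and level was not tested.

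Of 17 clock genes with at least 20 UMIs, 2 were at least 2-fold higher and 2 at least 2-fold lower in CF-KI members, against 5.18% and 3.4% of all genes. Nr1d1, the nuclear receptor REV-ERB alpha, whose window holds 1 E-prime box, had 220 UMIs in CF-KI and 55 in control. This was 76.46 CPM (66.69 to 87.26) against 20.01 CPM (15.08 to 26.05), a log2 ratio of 1.92 (1.50 to 2.39). Dbp, a D-box activator, had 97 and 40 UMIs (log2 ratio 1.20, 0.67 to 1.78), and Nr1d2, the relative of Nr1d1, stood at 86.54 and 53.13 CPM (log2 ratio 0.70).

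The repressor and activator genes lay on the other side. Per2 had 31 and 112 UMIs, at 10.77 CPM (7.32 to 15.29) against 40.75 CPM (33.56 to 49.04), a log2 ratio of -1.90 (-2.54 to -1.33). Cry1, with 1 E-box and 1 E-prime box, had 17 and 42 UMIs (log2 ratio -1.35, -2.28 to -0.53). Per3, with 2 D-boxes, stood at 55.26 and 96.79 CPM (log2 ratio -0.81). Cry2 stood at 33.02 and 62.95 CPM (-0.93) and Arntl at 31.97 and 54.22 CPM (-0.76).

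The clock differences were not particular to the members. Nr1d1 was higher in CF-KI in adventitial (log2 ratio 2.28), endothelial (1.24) and cardiomyocyte barcodes (1.20), and over the whole library by 1.46. Per2 was lower in the same 3 classes, by -2.14, -1.45 and -0.52, the last with an interval (-1.23 to 0.16) that spans 0, and by -1.62 over the whole library. By mitochondrial bin, Nr1d1 had ratios of 0.80 (-0.15 to 1.65) up to 5%, 1.99 from 5 to 10% and 2.21 from 10 to 20%. Per2 had -2.07, -1.65 and -2.21, with all 3 intervals below 0.

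**Figure D4:**
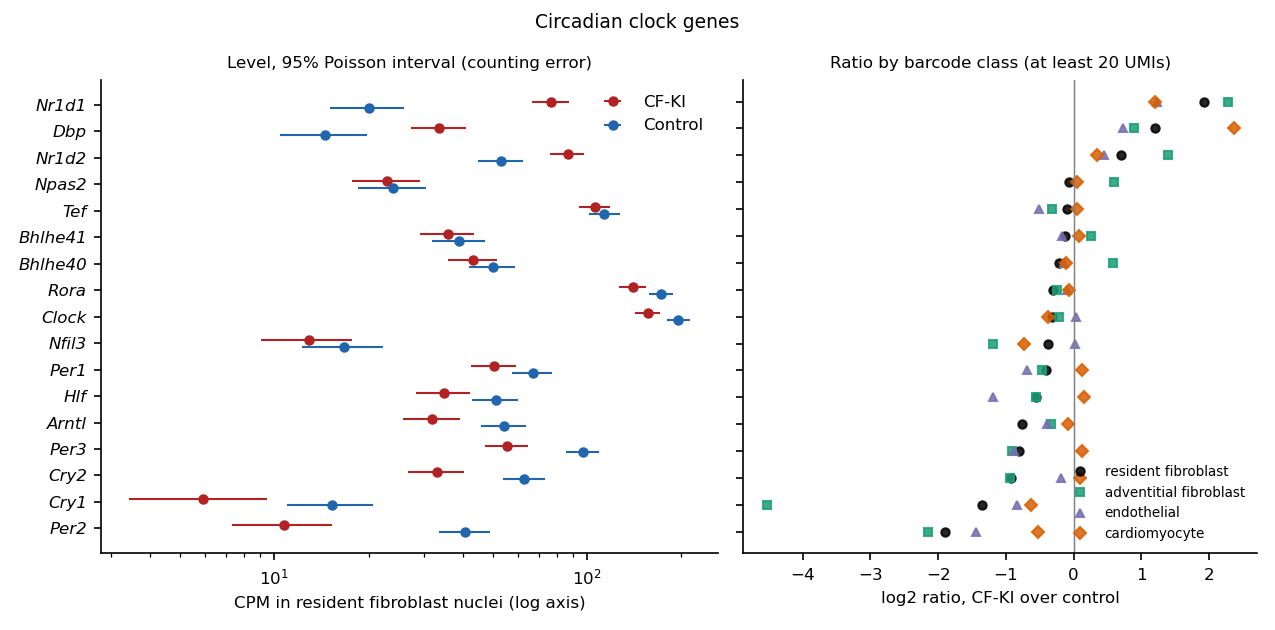
Left, CPM of clock genes in CF-KI (red) and control (blue) members on a log axis with 95% Poisson intervals. Right, the log2 ratio of CF-KI over control in members and 3 other barcode classes (at least 20 UMIs, both libraries above 0). Nr1d1 and Dbp lie to the right and Per2 and Cry1 to the left in all of the classes drawn.

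Of 21 transcription factors of the fibroblast lineage, 1 was at least 2-fold higher and none lower, and the median was 0.05. Tcf21 stood at 111.6 CPM in CF-KI (99.7 to 124.5) and 94.97 CPM in control (83.8 to 107.2), a log2 ratio of 0.23 (-0.01 to 0.47). Gata4, a cardiac GATA factor, stood at 47.61 and 28.75 CPM (log2 ratio 0.72). Hand2, a factor of the embryonic heart and its fibroblasts, was the gene past 2-fold, at 119.9 and 48.76 CPM (log2 ratio 1.29, 1.01 to 1.60). It was detected in 8.84% and 4.88% of members, below the 18.9% and 13.4% of cardiomyocyte barcodes. The median depth of those barcodes was 884 and 1950 non-mitochondrial UMIs, against 811 and 929 in members. The share was 12.9% and 2.02% in macrophage and 7.98% and 1.59% in pericyte barcodes. It was 8.873% and 7.661% in endothelial barcodes, at depths of 861 and 848, and 9.545% and 7.766% in the deeper adventitial barcodes. In control the members' share lay below these last classes. Whether the members expressed Hand2 was not tested. With free RNA subtracted its ratio was -0.12. Wt1 stood at 16.33 and 25.83 CPM (log2 ratio -0.66), and Tbx18, also epicardial, at 28.15 and 37.11 CPM.

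Of 17 guidance and neural adhesion genes 2 were at least 2-fold lower and none higher, against 3.4% and 5.18% of all genes. The median was -0.41 with the rule gene Pcdh9 and -0.23 over the 16 others. Slit2, a guidance ligand, stood at 38.93 and 68.77 CPM (-0.82). The rule genes Pcdh9 and Rgs17, a protocadherin and a regulator of G proteins, stood at 142.1 and 213.2 CPM and at 103.6 and 172.8 CPM. Nrp2, a semaphorin and VEGF co-receptor, stood at 71.59 and 38.57 CPM (0.89), and Plxdc2 at 258.9 and 215 CPM. Of 18 matrix protease genes and inhibitors none was past 2-fold: Adamts12, a metalloprotease, stood at 42.4 and 71.68 CPM (-0.76), Mmp16 at 8.34 and 15.65 CPM (-0.89) and Timp4, an inhibitor, at 29.19 and 19.29 CPM (0.59). Among 11 retinoid genes, which include Aldh1a1, the enzyme that makes retinoic acid, 1 was at least 2-fold lower, Cyp26b1 with 8 and 17 UMIs, and Aldh1a1 stood at 82.37 and 137.9 CPM (-0.74).

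Over all genes with at least 200 UMIs, the highest ratios in CF-KI members included haemoglobin, muscle and mitochondrial genes. Nppb, the natriuretic peptide BNP of strained heart muscle, had 328 and 61 UMIs (log2 ratio 2.35), and Cox7a1, a muscle subunit of cytochrome oxidase, 956 and 182 (2.32). Mgst3, a glutathione transferase, had 264 and 53 (2.24), and Ctla2a, a protease inhibitor gene, 469 and 107 (2.06). The lowest were airway genes such as Scgb1a1 and Cbr2, a carbonyl reductase with 31 and 174 UMIs (-2.54). Col27a1, a fibrillar collagen gene, had 104 and 289 UMIs (-1.54), and Mlxipl, a glucose-sensing factor, 83 and 226 (-1.51).

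The ratios of fibroblast markers differed between mitochondrial bins. The first holds the CF-KI barcodes that go against the label, and control members whose outside markers also lay under their whole library. Pdgfra had a pooled log2 ratio of -0.04 (-0.15 to 0.08) and bin ratios of -1.71 up to 5%, -0.66 from 5 to 10% and -0.06 from 10 to 20%. Gsn was lower in the pool, by -0.57 (-0.60 to -0.54), and lower still within bins, by -2.03, -1.86 and -1.54. With free RNA subtracted its ratio turned to 0.11, but that subtraction also removes fibroblast RNA.

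**Figure D5:**
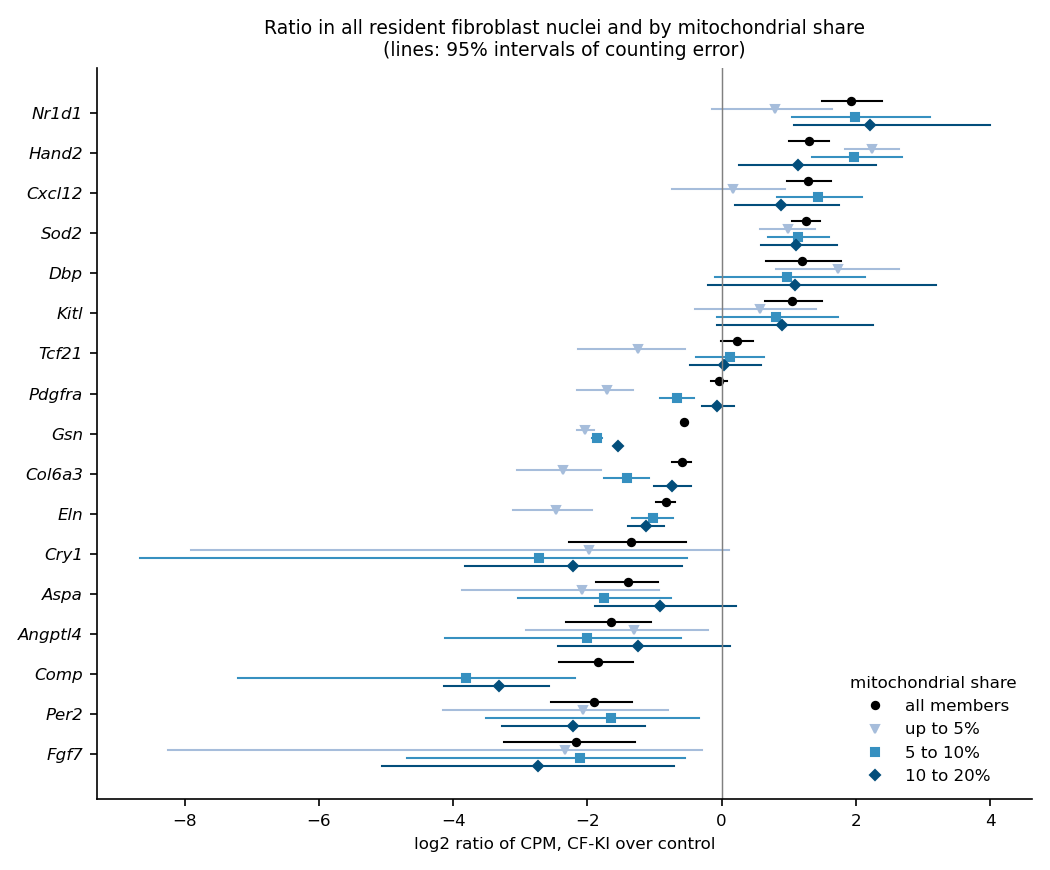
Log2 ratio of CF-KI over control CPM for 17 genes in all members (black) and in 3 bins of mitochondrial share (blues), with lines for 95% intervals of counting error, leaving out bins in which a library had no UMI. Per2, Fgf7 and Comp lie left of 0 and Sod2 and Hand2 right of 0 in every set drawn, while Pdgfra moves from -1.71 up to 5% to -0.06 from 10 to 20%.

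Among the nuclei of a library, few genes varied far beyond counting. Over 4237 genes with at least 100 UMIs in each library, the median variance was 1.08 times that of Poisson counting in CF-KI and 1.12 times in control. The most variable were haemoglobins, with Hbb-bs at 1480 times in CF-KI and 1171 times in control, followed by the nuclear RNA Malat1 and by Ttn, at 16.42 and 80.6 times. Of fibroblast genes Gsn varied most, at 12.07 and 28.26 times, and Dcn at 6.44 and 12.45 times. Ccl2 varied 6.57 and 6.64 times, its UMIs lying in 2.54% and 1.86% of nuclei. Tcf21, at 1.14 and 1.17 times, and Pdgfra, at 1.30 and 1.50 times, were close to counting noise. Tcf21, Pdgfra and Dcn are rule genes, so the choice of members shapes their spread. Tcf21 gave a UMI in 10.17% and 9.723% of nuclei, and at such low counts the ratio says little about how evenly it was expressed.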

How the data were processed

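Nuclei of heart tissue were profiled with the 10x Genomics 3′ v3 kit, per the labels. The authors deposited UMI counts per gene and barcode, made with Cell Ranger 6.1.1 against mm10 per the submitters' processing notes; whether introns were counted is not given in the sources used here. Counts of member barcodes were summed per library and scaled to CPM without mitochondrial genes. Log2 ratios had 0.5 UMIs added to each count. Intervals were exact Poisson, conditional binomial or Clopper-Pearson at 95%, and the interval of the share difference was made by square-and-add. Antisense and overlapping genes cannot be told apart by these counts. A gene was called past 2-fold among genes with at least 20 UMIs. Ratios are named for the rule genes, for the 2 top and 2 bottom genes of every list (50 UMIs or more), and for the 10 top and 10 bottom genes of the whole table (200 UMIs or more, mitochondrial and ribosomal protein genes left out). Against adventitial nuclei the 10 top and 10 bottom genes (100 UMIs or more) and for variation the 10 top genes were eligible, and other list genes may be named by their UMIs and CPM. Ratios of Arntl, Cry2, Nr1d2, Per3, Postn, Ccl2 and Cxcl9, and the genes that set members apart from other barcodes, were named in addition, with their values known. Doublets were not removed in the values given: Scrublet (scanpy 1.11.5) called 328 control barcodes (3.01%) but 1 in CF-KI (0.0079%), so its threshold had not worked there. The members and lists were chosen with earlier results of these data known. The ratio and interval functions were tested on simulated data. Alternatives covered the limits of the rule, TMM (edgeR 4.0.16) and median-of-ratios (DESeq2 1.42.0) scaling, thinning to 500 UMIs, subtraction of free RNA, and mitochondrial strata. Free RNA was taken as the whole-library profile at 78.94% of its level in CF-KI and 65.65% in control. These were medians over 12 cardiomyocyte markers (64.72 to 98.26% and 54.59 to 86.91%). The profile holds the members' own RNA, so fibroblast RNA is subtracted too, in unequal amounts.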

Additional observations from a re-analysis of the deposited data

Results flagged for a closer look

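Of 368 genes on the fibroblast lists, 6 had ratios of at least 0.75 on the log2 scale in opposite directions in resident fibroblast nuclei and in another barcode class, with both counting intervals leaving out 0. All 6 involved cardiomyocyte barcodes, and none of the differences was tested, since each class comes from 1 library per genotype. Comp had log2 ratios of CF-KI over control of -1.84 in resident fibroblast nuclei and 0.95 in cardiomyocyte barcodes, a difference of -2.79. Adamts12 differed by -2.36 (122 and 197 UMIs against 54 and 17). Fmod differed by -2.12 (27 and 60 against 49 and 25) and Il18r1, the interleukin-18 receptor gene, by -2.06 (16 and 37 against 67 and 37). Eln differed by -1.92 (627 and 1069 against 393 and 180) and Ncam1, a neural cell adhesion gene, by -1.59 (23 and 39 against 55 and 31). Cardiomyocyte barcodes had a median depth of 884 non-mitochondrial UMIs in CF-KI and 1950 in control, and of their genes 18.6% lay 2-fold or more above control and 2.97% as far below. In these barcodes 19 of 21 genes of the collagen and proteoglycan list were at least 2-fold higher in CF-KI (median 1.60). Of the elastic fibre list 10 of 17 were (median 1.26). Higher values there were thus not particular to the genes named.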

How the results depend on the processing

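No paired analysis was possible because the groups share only 1 replicate number and no test was made. The share difference of 0.615 points became -9.98 with a mitochondrial limit of 5%, -8.58 with 10%, -0.68 with none, -2.61 with at least 4 fibroblast markers, 5.25 with at least 2, -4.50 with no adventitial limit and -0.62 with no excluded UMI. Under alternatives chosen after seeing the data it was -1.89 with 2 of 6 non-collagen markers required, -1.49 with a limit on Ttn and Ryr2 and -0.51 above 5% mitochondrial UMIs. The Nlrp3 difference of 2.43 CPM was 0 with a limit of 5%, 4.08 with 10% and 0.816 with no adventitial marker. The 649 higher genes became 2440 with at least 1 UMI and 359 with at least 100. The 426 lower genes became 2675 and 1182 with limits of 5% and 10%, 1160 with free RNA subtracted, 1081 combined over mitochondrial strata, 2485 with at least 1 UMI and 70 with at least 100. Of 1776 gene values, 56 reversed and 312 more moved outside the counting interval of the main value. Of the list medians, 260 stayed within such an interval, 323 moved outside it and 4 reversed.

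Among list medians, subtracting free RNA turned ribosomal protein genes to -3.52 and erythroid markers to -9.10, the 5% limit turned endothelial markers to -0.64, and requiring 2 non-collagen markers turned erythroid markers to -1.14. With free RNA subtracted, log2 ratios were 0.22 for Abca8a, 0.52 for Col1a1, 0.47 for Col1a2, 0.35 for Col3a1, 0.39 for Dcn, 0.11 for Gsn, -0.12 for Hand2, -0.17 for Col4a2 and -3.56 for Nfkbia. With a limit of 5% they were -1.44 for Aspn, -1.06 for Bmp6, -2.28 for Ccl11, -1.62 for Ccl2, -0.96 for Cd55, -1.70 for Col4a1, -1.002 for Col4a2, -1.28 for Fbn1, -0.49 for Nfkbia, -1.19 for Nrp2, -0.999 for Ogn, -1.65 for Plxdc2, -0.061 for Smad2 and -1.17 for Timp4. With 10% they were -0.74 for Aspn, -0.56 for Ccl11, -0.36 for Cd55, -0.72 for Col4a1, -0.27 for Col4a2, -0.65 for Fbn1, -0.36 for Ogn and -0.56 for Plxdc2. With no adventitial limit they were -0.58 for Aspn, -0.074 for Bmp6, -0.026 for Cd55, -0.061 for Col4a1, -0.0018 for Fbn1, -0.24 for Ogn and -0.013 for Plxdc2. Above 5% they were -0.048 for Aspn, -0.026 for Cd55, -0.16 for Col4a1, -0.0036 for Col4a2, -0.14 for Fbn1 and -0.070 for Ogn. Combined over mitochondrial strata they were -0.51 for Aspn, -0.017 for Bmp6, -0.27 for Ccl11, -0.047 for Ccl2, -0.43 for Cd55, -0.55 for Col4a1, -0.31 for Col4a2, -0.51 for Fbn1, -0.35 for Ogn and -0.37 for Plxdc2. Thinning gave -0.023 for Ccl11, and at least 4 markers gave 0.020 for Il18r1. The cause of these changes was not tested.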
